A study of Mus musculus with 8 samples.

Results

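The change from day to night was followed across all genes in the livers of mice given sudachitin. The comparison set the 2 livers taken at zeitgeber time 18 (ZT18, hours after lights on, in the dark phase) against the 2 taken at ZT6, in the light phase, which is 4 of the 8 libraries of the study. All 8 mice were male C57BL/6J animals on a high-fat diet with 45% of its calories from fat, bought at 4 weeks of age and killed at 30 weeks. The treated animals came from a cohort of 12 gavaged with sudachitin, a polymethoxyflavone from citrus peel, at 100 mg per kg of body weight. The 4 vehicle mice, from a cohort of 11 gavaged with phosphate-buffered saline on the same diet, supplied 2 livers at each time and are called control here. Gavage was given every other day between ZT8 and ZT10, and the interval from the last dose to sampling is not given in the sources used here. With dosing at these hours the interval differed between ZT6 and ZT18 livers, so it cannot be told apart from time of day. Each sequenced library was from a separate mouse by its title. The table held 55421 transcripts, of which 14506 had enough counts to be tested.

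The liver clock is a transcriptional loop in which CLOCK and BMAL1, the product of Arntl, bind E-box sequences and switch on their own repressors, the PER and CRY proteins and the nuclear receptors REV-ERB alpha and beta (Nr1d1 and Nr1d2). The REV-ERB proteins in turn repress Arntl, and the factors DBP, TEF and HLF carry the rhythm to further genes through D-box sequences. Mice feed mainly in the dark, and feeding, body temperature and insulin drive many other rhythmic liver genes, including those of lipid, bile acid and chaperone metabolism. A single day point and a single night point give a difference between these times, not a rhythm, a phase or an amplitude.

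Both ZT6 sudachitin mice share the start of their title code and the ZT18 mice do not, so cage or handling, if the codes mark them, cannot be told apart from time. The 4 libraries held 14448504 to 17483095 counts in exons, and the mice of each time correlated across genes at r = 0.988 (ZT6) and 0.986 (ZT18). Among the controls, ZT18 replicate 1 stood apart, as the highest or lowest of the 8 libraries in 38.2% of genes.

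Between ZT6 and ZT18, sudachitin-treated liver differed in 4 core clock genes and 4 genes known to follow the clock, among others. Nr1d1 fell 16.5-fold, Dbp 3.68-fold and Nr1d2 1.99-fold from day to night, while Cry1 rose 2.88-fold and Wee1 2.68-fold. Metabolic genes that passed were Nmrk1, G0s2 and Por, which rose, and Agxt, which fell. By edgeR with an adjusted p under 0.05, 27 of 14506 genes differed (0.186% of those tested), 16 higher at ZT18 (0.11%) and 11 lower (0.0758%). The median change of all tested genes was 0.01 on the log2 scale, and its median size was 0.21, against 1.42 among the called genes. Size alone did not decide a call: 739 genes differed by at least 1 on the log2 scale, and 22 of them passed. An unadjusted p under 0.05 was reached by 1835 genes (12.6%), 1030 higher (7.1%) and 805 lower (5.55%).

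The stretches before the start sites of 4 of these genes are printed because each holds a short motif that clock or nuclear receptor proteins are known to bind. They are the 250 bases before the RefSeq start site, on build GRCm38.p6, 5′ to 3′ on the strand of the gene, with motif matches in capitals. The E-box was searched as CACGTG, the E-prime box as CACGTT, the D-box as TTATGNAA and the site of REV-ERB-type receptors as AGGTCA, on both strands. In Nr1d1 the capitals mark an E-prime box, in Nr1d2 a receptor site, in Cry1 an E-box and an E-prime box, and in Gde1 a D-box and a receptor site.
Nr1d1 (chr11:98775378-98775627, minus strand): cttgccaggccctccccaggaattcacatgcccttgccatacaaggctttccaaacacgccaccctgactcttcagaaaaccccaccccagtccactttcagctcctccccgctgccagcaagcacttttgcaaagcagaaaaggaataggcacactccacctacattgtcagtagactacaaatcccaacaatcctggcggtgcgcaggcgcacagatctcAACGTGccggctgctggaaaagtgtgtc
Nr1d2 (chr14:18239107-18239356, minus strand): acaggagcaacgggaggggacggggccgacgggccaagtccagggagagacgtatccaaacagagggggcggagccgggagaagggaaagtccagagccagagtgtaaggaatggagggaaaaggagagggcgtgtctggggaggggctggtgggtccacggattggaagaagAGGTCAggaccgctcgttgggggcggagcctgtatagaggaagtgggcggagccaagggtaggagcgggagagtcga
Cry1 (chr10:85185055-85185304, minus strand): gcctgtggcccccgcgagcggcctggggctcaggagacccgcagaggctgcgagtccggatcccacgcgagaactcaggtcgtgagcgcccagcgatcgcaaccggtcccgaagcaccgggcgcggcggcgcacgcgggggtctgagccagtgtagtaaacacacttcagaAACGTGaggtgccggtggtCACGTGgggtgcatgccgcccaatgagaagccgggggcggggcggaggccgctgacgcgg
Gde1 (chr7:118705739-118705988, minus strand): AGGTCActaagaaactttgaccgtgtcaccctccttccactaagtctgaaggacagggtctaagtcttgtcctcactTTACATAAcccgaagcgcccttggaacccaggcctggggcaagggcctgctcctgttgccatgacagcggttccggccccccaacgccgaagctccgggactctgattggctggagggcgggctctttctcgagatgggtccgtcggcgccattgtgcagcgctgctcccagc
A match describes letters only. Counted from the start site, the first base of the match was at -28 in Nr1d1, at -77 in Nr1d2, at -60 (E-box) and -79 (E-prime box) in Cry1, and at -173 (D-box) and -250 (receptor site) in Gde1. RefSeq promoters, counted here over 300 bases with 50 after the start, were matched for 20 of the 27 called genes, 11 higher and 9 lower. An E-box stood in 1 of the 11 (9.09%) and 0 of the 9, against 10.1% of the 10419 tested genes with a promoter and 7.15% of all 32851 promoters. The D-box stood in 2 of the 11 (18.2%), Gde1 and Gm19522, against 2.26% and 3.38%. The receptor site stood in 1 of 11 and 1 of 9, against 12.8% and 16.3%, and the E-prime box in 1 of 11 and 1 of 9, against 5.45% and 4.68%. Of the 3 other motifs searched, the cAMP response element TGACGTCA stood in Trp53inp2 at -41 (3.03% of tested genes), the heat shock element GAANNTTC in Agxt at -197 (5.81%), and TGACGTGG of the unfolded protein response in none (0.797%). With so few called promoters, these shares carry no comparison.

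The repressors and D-box factors are given first. Nr1d1 (chr11:98767932-98775333), which encodes REV-ERB alpha, was at 113 and 91.3 CPM, which are counts scaled to library size with TMM factors, in the ZT6 mice. It was at 4.86 and 7.52 CPM in the ZT18 mice, so the groups lay far apart. Its log2 change was -4.04 ± 0.22 (SE) with an edgeR adjusted p of 0.00051, and it was the only called gene to pass whichever of the 8 libraries was left out. Nr1d2 (chr14:18204054-18239127), which encodes REV-ERB beta, was at 62.4 and 70.6 CPM at ZT6 and 33.8 and 32.9 CPM at ZT18. Its log2 change was -1.0 ± 0.13 (adjusted p 0.029), and both night livers stood below both day livers.

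Dbp (chr7:45705088-45710203), the D-box activator, was at 52.8 and 40.3 CPM by day and 12.9 and 12.4 CPM by night, a log2 change of -1.88 ± 0.27 (edgeR adjusted p 0.042). Its exons overlap those of Sphk2 on the opposite strand over 539 bases, and counts of such pairs cannot be told apart in libraries without strand. Cry1 (chr10:85131700-85185064), a repressor of CLOCK and BMAL1, was at 12.5 and 15.2 CPM at ZT6 and 40.9 and 39.0 CPM at ZT18. The night livers were both above the day livers, with a log2 change of 1.53 ± 0.14 (adjusted p 0.0051). On the length-scaled FPKM measure, Nr1d1 was listed at 19.4 and 16 and Cry1 at 1.93 and 2.40 by day. By night the order was reversed, with Nr1d1 at 0.798 and 1.22 FPKM and Cry1 at 6.08 and 5.68.

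Of 18 core clock genes tested, 2 passed higher, 2 lower and 14 did not pass, where 0.11% of all tested genes passed higher and 0.0758% lower. Members with night above day in both mice numbered 9 and with night below day 6, where 23.5% and 22.3% of all tested genes showed the same patterns. The PER genes, repressors that act with the CRY proteins, were among those that did not pass. Per1 was at 7.62 and 6.68 CPM by day and 15.4 and 17.1 by night (log2 change 1.18 ± 0.21, adjusted p 0.08). Per2 was at 19.7 and 10.0 by day and 42.5 and 58.8 by night (1.77 ± 0.40, adjusted p 0.14), and the 2 mice of each time were far apart. For Per3 the 4 values were 9.77, 6.41, 14 and 25.2 CPM in the same order of mice (adjusted p 0.27).

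The genes of the activator side of the loop did not pass. Arntl was at 13.1 and 13 CPM by day and 15.4 and 21.3 by night (log2 change 0.50 ± 0.18, adjusted p 0.33), and Clock overlapped between the times, from 44.7 to 57.1 CPM over the 4 livers. Npas2, a paralog of Clock, was at 2.15 and 4.71 by day and 0.830 and 0.822 by night (-2.04 ± 0.55, adjusted p 0.18). Bhlhe40, a repressor that binds E-boxes, had a log2 change of 0.86 ± 0.29 (adjusted p 0.28), and its paralog Bhlhe41 of -1.46 ± 0.57 (adjusted p 0.35). The core members Cry2, Ciart, Rora, Csnk1d and Csnk1e had changes from -0.56 for Rora to 0.54 for Csnk1e, none with an adjusted p under 0.38.

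Among 18 clock output genes, which are genes known to follow the clock, 3 rose, 1 fell and 14 did not pass, where 0.11% of all tested genes rose and 0.0758% fell. Their median log2 change was 0.61, against 0.01 for all tested genes. Wee1, a kinase that holds back entry into mitosis, was at 4.86 and 5.46 CPM by day and 15 and 12.6 by night (log2 change 1.42 ± 0.17, edgeR adjusted p 0.023). Tspan4, a tetraspanin, was at 28.9 and 25.7 by day and 71.6 and 66.3 by night (1.34 ± 0.17, adjusted p 0.027). Por, the electron donor of microsomal cytochrome P450 enzymes, was at 28.0 and 25.6 by day and 70.4 and 60.1 by night (1.28 ± 0.18, adjusted p 0.041). In each of the 3 genes both night livers exceeded both day livers, as in 23.5% of all tested genes, and Dbp was the output gene that fell.

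Other output genes had large but less even differences. Usp2, a deubiquitinase, was at 1.66 and 0.546 CPM by day and 6.70 and 6.93 by night (log2 change 2.60 ± 0.40, adjusted p 0.058). Alas1, the rate-limiting enzyme of heme synthesis, was at 38.5 and 97.8 by day and 505 and 210 by night (2.39 ± 0.54, adjusted p 0.14). Lonrf3 (1.46 ± 0.31, adjusted p 0.12), Nfil3, a repressor at D-boxes (0.86 ± 0.21, adjusted p 0.15), Gys2, liver glycogen synthase (0.59 ± 0.14, adjusted p 0.15), and Tef (0.47 ± 0.13, adjusted p 0.20) did not pass either. Hlf had a log2 change of -0.03 ± 0.12, with 61.1 and 54.0 CPM by day and 57.3 and 55.5 by night. Rgs16, a regulator of G protein signalling, was at 66.3 and 23.5 by day and 17.8 and 85.3 by night, so its 2 mice per time disagreed. Ppard, Leo1, Tsc22d3, Dtx4, Avpr1a and Cys1 lay between -0.42 for Avpr1a and 0.80 for Tsc22d3, with adjusted p from 0.30 for Leo1 and 0.32 for Ppard to 0.77 for Cys1.

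**Figure D1:**
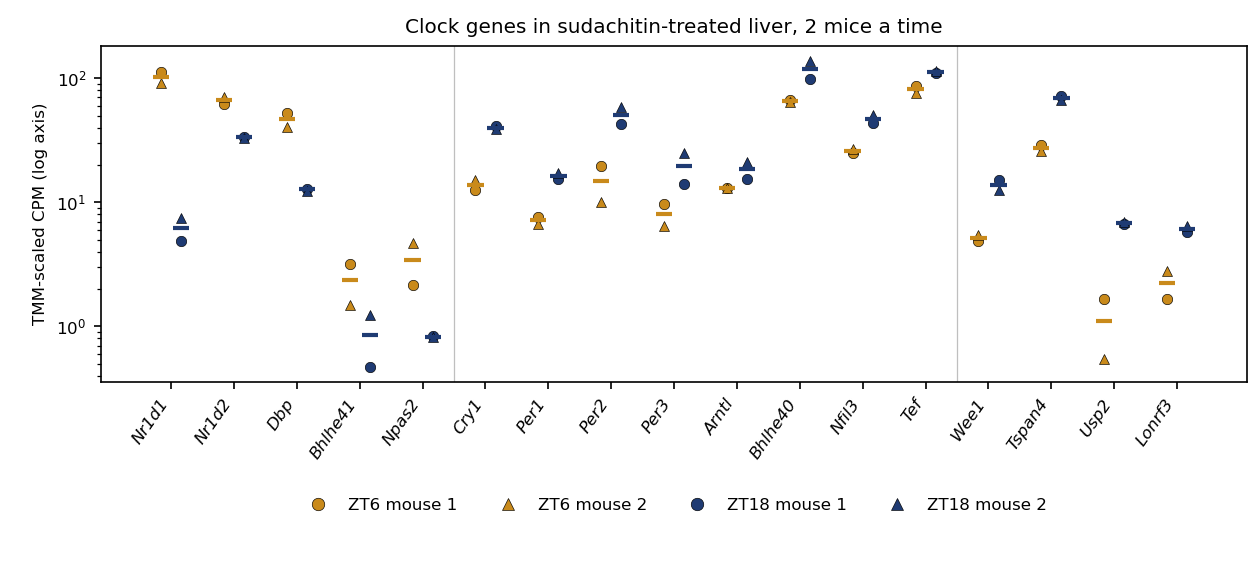
TMM-scaled CPM (log axis) of 17 clock and clock output genes in the 4 livers of sudachitin-treated mice; each point is 1 mouse, circles and triangles are replicates 1 and 2 of a time, and bars are means of 2. Nr1d1, Nr1d2 and Dbp were lower at ZT18 in both mice, Cry1, Wee1 and Tspan4 were higher, and Per2 and Usp2 show wide gaps between mice of 1 time.

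Beside the clock genes, 4 called genes belong to metabolic lists. Nmrk1 (chr19:18631950-18652428), a nicotinamide riboside kinase of NAD salvage, was at 8.73 and 8.12 CPM by day and 32.6 and 35.7 by night, a 4.05-fold rise (log2 change 2.02 ± 0.18, edgeR adjusted p 0.0051). It was the 1 of 23 NAD genes to pass, where 0.11% of all tested genes passed higher. The list's median change was 0.04, or -0.03 without ZT18 replicate 1. Nampt, the rate-limiting enzyme of NAD salvage, was at 29.1 and 44.5 by day and 79.4 and 60.2 by night (0.93 ± 0.22, adjusted p 0.14). Nmnat3, an adenylyltransferase of the same pathway, was at 2.83 and 2.93 by day and 0.711 and 1.12 by night (-1.65 ± 0.36, adjusted p 0.13).

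G0s2 (chr1:193272161-193273217), an inhibitor of adipose triglyceride lipase, was at 89.6 and 111 CPM by day and 230 and 276 by night (1.33 ± 0.16, edgeR adjusted p 0.026), with no overlap. It was the 1 of 21 triglyceride and lipid droplet genes to pass, where 0.11% of all tested genes passed higher. The list's median was 0.25, but 0.09 without ZT18 replicate 1 and 0.43 without ZT18 replicate 2. Lpin1, which makes diacylglycerol, had a log2 change of 0.99 ± 0.27 (adjusted p 0.18), and the droplet protein Plin5 of 0.63 ± 0.18 (adjusted p 0.20). Plin4, another droplet protein, was at 3.56 and 6.27 by day and 52.3 and 9.28 by night, so 1 night mouse carried most of its difference (2.65 ± 0.81, adjusted p 0.23). Of 15 fatty acid synthesis genes none passed, 14 lay above 0 and the median was 0.47, but 0.19 without ZT18 replicate 2 and 0.70 without ZT18 replicate 1. Thrsp, a lipogenic regulator, was at 427 and 220 CPM by day and 762 and 1530 by night (1.83 ± 0.39, adjusted p 0.12). The elongase Elovl6 (1.32 ± 0.30, adjusted p 0.14), the acetyl-CoA carboxylase Acacb (1.16 ± 0.29, adjusted p 0.17) and the desaturase Fads2 (0.58 ± 0.23, adjusted p 0.36) lay on the same side.

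Agxt (chr1:93135240-93145421), the peroxisomal aminotransferase that removes glyoxylate, was at 260 and 245 CPM by day and 120 and 106 by night, a 2.23-fold fall (-1.16 ± 0.15, edgeR adjusted p 0.028). It was the 1 of 28 urea cycle and amino acid genes to pass, where 0.0758% of all tested genes passed lower. That list's median was -0.01, from -0.17 without ZT6 replicate 2 to 0.12 without ZT6 replicate 1. Cbs, of the transsulfuration route, was at 575 and 546 by day and 333 and 269 by night (-0.90 ± 0.18, adjusted p 0.098). The urea cycle enzyme Asl lay the other way, at 508 and 337 by day and 773 and 813 by night (0.91 ± 0.23, adjusted p 0.17).

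Of the bile acid genes, 0 of 19 passed, and they divided in direction, 11 above and 8 below 0. Cyp7a1, the rate-limiting enzyme of bile acid synthesis, was at 32.8 and 21.7 CPM by day and 142 and 120 by night (2.26 ± 0.45, adjusted p 0.098). Abcb11, the bile salt export pump, was at 683 and 693 by day and 381 and 411 by night (-0.80 ± 0.12, adjusted p 0.058), and Hsd3b7, a later enzyme of the synthesis, at 578 and 531 against 292 and 332 (-0.83 ± 0.14, adjusted p 0.071). In all 3 the night and day livers did not overlap, as in 23.5% (higher at night) and 22.3% (lower) of all tested genes. Hsd3b7 shares 1665 of its 1828 exon bases with Gm49388 on the same strand, and counts over these bases cannot be told apart. Por was the 1 of 23 phase 1 xenobiotic genes to pass, where 0.11% of all tested genes passed higher. The median of the phase 1 genes, 0.23, was 0.04 without ZT6 replicate 1. Of 25 phase 2 and antioxidant genes none passed, the smallest adjusted p was 0.23, and the median of -0.04 was -0.27 without ZT6 replicate 1.

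Genes of feeding and insulin signalling numbered 18, with 0 passing, 11 above and 7 below 0, and changes from -1.33 to 1.92. Their median of 0.51 was 0.21 without ZT18 replicate 2. Irs2, an insulin receptor substrate, was at 12.9 and 14 CPM by day and 40.9 and 25.1 by night (1.30 ± 0.21, edgeR adjusted p 0.065). Angptl4, an inhibitor of lipoprotein lipase, was at 42.1 and 54.1 by day and 166 and 106 by night (1.5 ± 0.27, adjusted p 0.081). Sik1, a salt-inducible kinase, had a change of 1.30 ± 0.22 (adjusted p 0.073), and Igfbp1, an insulin-like growth factor binding protein that insulin lowers, was at 20.2 and 32.7 against 126 and 61.2 (1.83 ± 0.52, adjusted p 0.20). Of the gluconeogenic genes 0 of 14 passed, and G6pc, the glucose-6-phosphatase, was at 161 and 136 by day and 502 and 294 by night (1.42 ± 0.32, adjusted p 0.13). Pck1 was at 1020 and 670 against 2430 and 1100. In Irs2, Angptl4, Igfbp1, G6pc and Pck1 the ZT18 replicate 1 liver was the higher of the night pair.

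**Figure D2:**
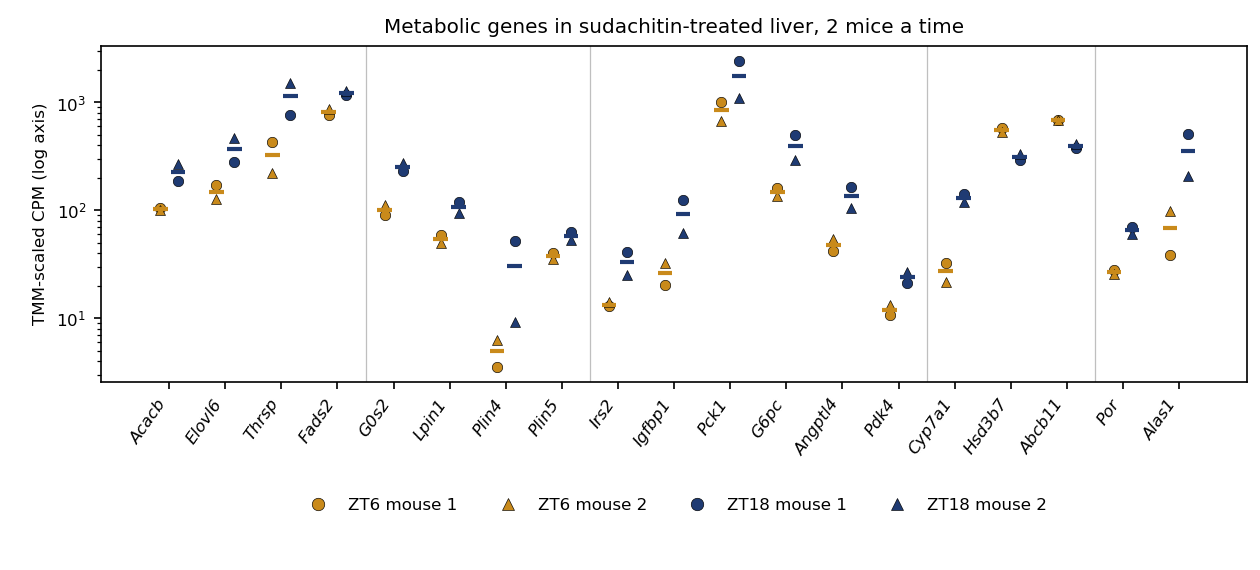
TMM-scaled CPM (log axis) of 19 lipid, feeding, bile acid and xenobiotic genes in the 4 livers of sudachitin-treated mice; each point is 1 mouse, circles and triangles are replicates 1 and 2 of a time, bars are means of 2 and grey lines divide the groups. G0s2 and Por are tight within each time, while Plin4, Igfbp1, Pck1 and Thrsp differ widely between the 2 night mice.

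Heat shock and folding genes lay mostly above 0 at night and those of the unfolded protein response mostly below, with none passing in either list. Of 21 heat shock and protein folding genes, 20 lay above 0 and 18 were higher in both night mice, as were 23.5% of all tested genes, with a median log2 change of 0.42. Hspa1b, an inducible HSP70, was at 3.81 and 2.86 CPM by day and 34.1 and 12.3 by night (2.79 ± 0.45, adjusted p 0.064), and its counts may be shared with its near-identical copy Hspa1a. The constitutive Hspa8 was at 853 and 755 against 1620 and 1360 (0.89 ± 0.18, adjusted p 0.098), and the co-chaperones Bag3 (0.81 ± 0.13, adjusted p 0.065) and Dnajb1 (0.79 ± 0.20, adjusted p 0.17) lay on the same side. Of 24 genes of the unfolded protein response, which serve folding in the endoplasmic reticulum, 19 lay below 0 and 18 were lower in both night mice, as were 22.3% of all tested genes, with a median of -0.33. Hsp90b1 was at 809 and 856 by day and 542 and 587 by night (-0.56 ± 0.14, adjusted p 0.16), and Pdia6 (-0.62 ± 0.17, adjusted p 0.19), Calr (-0.46 ± 0.14, adjusted p 0.23) and Pdia4 (-0.48 ± 0.16, adjusted p 0.29) were on the same side. In control the medians of the 2 lists were 0.40 and -0.88, and 7 genes of the unfolded protein response were called lower there, as were 0.31% of all tested genes. For Hsp90b1 the difference between the treatments was 0.52, with an unadjusted p of 0.027 and an edgeR adjusted p of 1.

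Other metabolic and stress lists had no called member. Of 29 genes of fatty acid oxidation and ketogenesis, 24 lay above 0, with a median of 0.15 that was 0.05 without ZT6 replicate 1 and 0.25 without ZT6 replicate 2. Pdk4, a kinase that holds back pyruvate oxidation, had a change of 1.01 ± 0.31 (adjusted p 0.23). In the list of glycolysis and glycogen (22 genes, median 0.21, or 0.13 without ZT6 replicate 2), Pfkfb1, which sets the level of a bisphosphate activator of glycolysis, was at 23.8 and 20.5 by day and 42.2 and 42.5 by night (0.93 ± 0.14, adjusted p 0.058). Of 15 glucocorticoid targets 9 lay above and 6 below 0, from -1.33 to 1.19, and their median of 0.63 was 0.39 without ZT6 replicate 2. The highest was Dusp1, a phosphatase of MAP kinases, at 13.8 and 16.8 CPM by day and 31.8 and 37.9 by night (1.19 ± 0.33, adjusted p 0.19), and Per1 also belongs to this list. The genes of oxidative phosphorylation (34), ribosome biogenesis (20) and the cell cycle (20) had medians of 0.08, 0.15 and 0.06. The lowest medians with 1 library left out were -0.02 for the first (ZT18 replicate 1), 0.09 for the next (ZT6 replicate 2) and -0.19 for the last (ZT6 replicate 1). Of 11 genes of the integrated stress response, 10 lay above 0, with a median of 0.17 that was 0.08 without ZT18 replicate 1 and 0.34 without ZT6 replicate 2. Its 1 member below 0 was Trib3, at 8.11 and 6.55 by day and 2.61 and 2.29 by night (-1.58 ± 0.27, adjusted p 0.071).

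Immune and acute phase genes lay mostly below 0 at night, with none passing. Of 28 interferon response genes, 23 were below 0, with a median of -0.26 that was -0.40 without ZT18 replicate 2, such as Ifit1 at 12.1 and 10.3 CPM by day and 4.86 and 6.69 by night (-0.96 ± 0.24, adjusted p 0.16). Of 20 acute phase genes, 17 were below 0, and the median of -0.28 was -0.56 without ZT18 replicate 1 and -0.15 without ZT18 replicate 2. Orm2, an acid glycoprotein, was at 49.8 and 42.3 against 10.6 and 7.63 (-2.34 ± 0.55, adjusted p 0.14), and Saa1 and Saa2 at -2.21 ± 0.75 and -2.65 ± 0.81, both with counts that near-identical copies may share. Macrophage markers also lay mostly below 0 (13 of 16, median -0.23), and their summed level was 226 and 353 CPM by day and 237 and 216 by night. Between the mice the lists differed: ZT6 replicate 2 was higher for 15 of 16 macrophage markers, 15 of 28 interferon genes and 9 of 20 acute phase genes. The part of macrophages in the result was not tested. In bulk tissue, fewer cells of a type and less RNA per cell cannot be told apart.

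In some lists the median difference between mice of 1 time was larger than that between the times, and 4 are described below. Others included core clock (log2 ratio of replicate 1 over 2 at ZT18 -0.36, against 0.21 between times) and fatty acid synthesis (-0.52 against 0.47). It was smaller in clock output, at 0.15 (ZT6) and 0.03 (ZT18) against 0.61. At ZT6 replicate 1 was higher for 20 of 20 male-biased liver genes (median log2 ratio 0.91), and replicate 2 for 15 of 16 macrophage markers. At ZT18 replicate 2 was higher for 23 of 24 cholesterol synthesis and uptake genes, and replicate 1 for 19 of 20 acute phase genes. From day to night, male-biased genes lay above 0 for 18 of 20, such as Elovl3 at 274 and 161 CPM by day and 421 and 438 by night (0.98 ± 0.38, adjusted p 0.34). Their median of 0.39 was -0.01 without ZT6 replicate 2 and 0.96 without ZT6 replicate 1. The cholesterol median of -0.13 was 0.07 without ZT18 replicate 1 and -0.46 without ZT18 replicate 2. The macrophage median of -0.23 was 0.10 without ZT6 replicate 2 and -0.55 without ZT6 replicate 1. Hepatocyte markers summed to 105000 and 116000 CPM by day and 120000 and 104000 by night, the highest sum of the marker lists. Lymphocyte markers summed to 4.24 to 6.40 CPM, and 5 of 7 pancreatic acinar markers were at 0 in all 8 libraries. The other acinar markers, Cela1 and Cela2a, summed to 22.2 and 22.4 CPM by day and 11.7 and 13.6 by night.

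**Figure D3:**
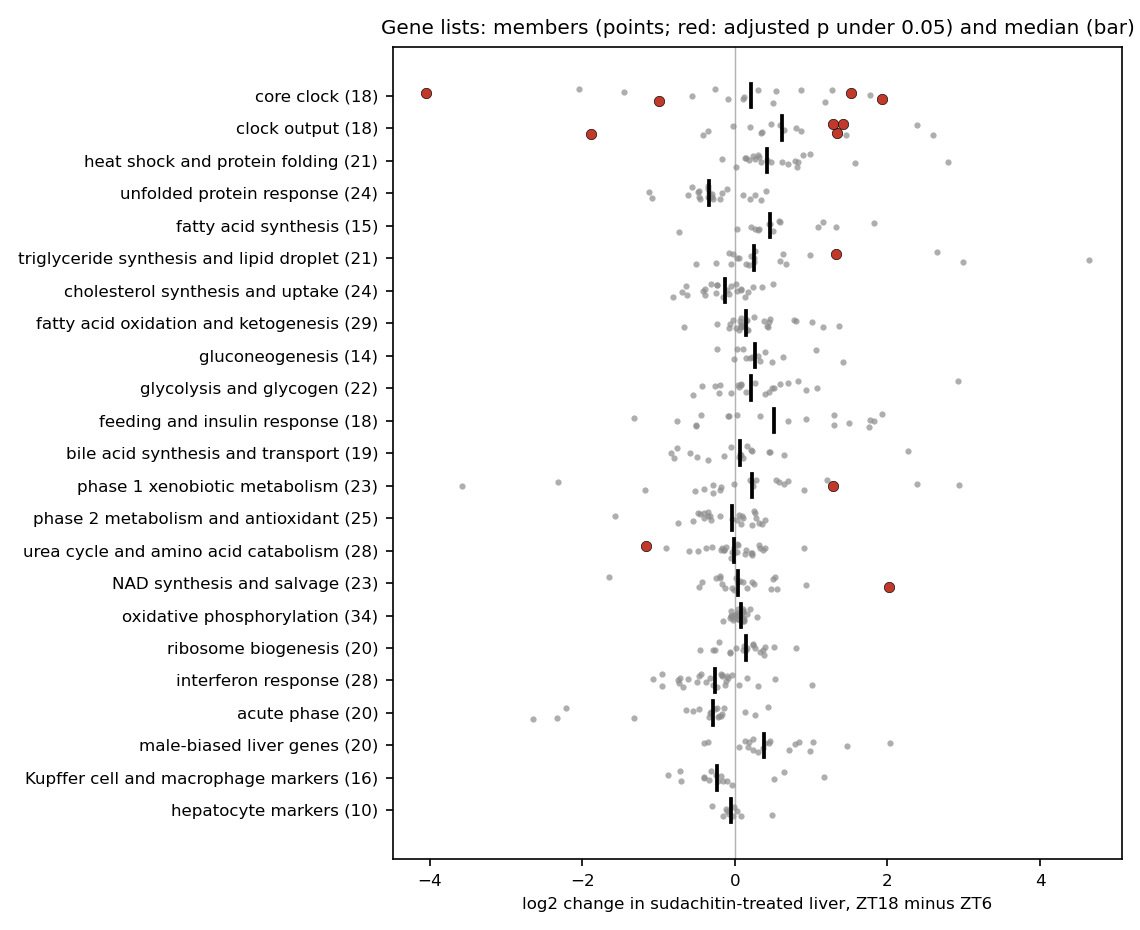
Log2 change from ZT6 to ZT18 in sudachitin-treated liver of the members of 23 gene lists, with the number tested in brackets; each point is 1 gene, red points passed an adjusted p under 0.05 and black bars are medians. Red points stand in the clock lists and singly in 4 metabolic lists, and the medians of most other lists lie within 0.5 of 0.

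The other called genes belong to no list but were named for the size of their change. Those that fell were Hectd2, a ubiquitin ligase, from 79.7 and 79.1 CPM to 26.3 and 27.7, with its antisense partner Hectd2os, from 85.6 and 85.5 to 26.3 and 27.2. The pair overlap over 1718 bases, and their counts cannot be told apart. Ndrg1, a stress-response gene, fell 3.09-fold, Mrnip, a DNA damage response gene, 2.98-fold, Klhdc7a 2.32-fold, and Jade1, a scaffold of histone acetyltransferase complexes, 2.16-fold. Their adjusted p-values were 0.011 for Ndrg1, 0.023 for Mrnip, 0.010 for Klhdc7a and 0.011 for Jade1.

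Those that rose were Ackr2, a chemokine scavenger receptor, from 1.17 and 1.09 CPM to 3.97 and 3.93 (edgeR adjusted p 0.042), Lonrf1 from 4.12 and 4.16 to 9.66 and 9.69 (adjusted p 0.042), and Gde1, a glycerophosphodiesterase, from 41.2 and 42.6 to 98.7 and 75.3 (adjusted p 0.042). Rapgef4, a cAMP-activated exchange factor for Rap, was at 44.1 and 40.0 by day and 72.8 and 90.9 by night (0.96 ± 0.14, adjusted p 0.042). Trp53inp2, an autophagy gene, rose 1.90-fold (adjusted p 0.039) and Lrrc28 1.71-fold (adjusted p 0.042). Predicted genes among the calls were Gm36041, which fell, and Gm19522, Gm43401 and 4921516A02Rik, which rose. Exons of Gm43401 and 4921516A02Rik overlap genes on the opposite strand over 189 and 2104 bases, so their counts may be shared. In each of the 27 called genes both night livers lay outside the day pair, as in 23.5% (higher) and 22.3% (lower) of all tested genes. The calls were made on these same values, so this adds no support to them. Of the genes next by p, Txnip, a thioredoxin-binding protein, was at 27.7 and 38.1 by day and 89.6 and 70.6 by night (1.28 ± 0.19, adjusted p 0.051), and the translation inhibitor Eif4ebp3 at 6.88 and 3.48 against 29.5 and 45.3 (2.84 ± 0.46, adjusted p 0.064). Eif4ebp3 shares 501 of its 744 exon bases with Maskbp3 on the same strand.

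Beside the sudachitin livers, the control livers showed 76 calls between the same times (0.524% of tested genes), and of the called genes 26 of 27 had the same sign there. Of the 16 that rose under sudachitin 9 were also called higher in control, and of the 11 that fell 10 were also called lower. A call in 1 treatment and not in the other does not show that they differ, so the difference itself was tested. In edgeR it passed for 0 of 14506 genes (0%), and 548 (3.78%) had an unadjusted p under 0.05. DESeq2 called 14, all with a positive difference (sudachitin change minus control change). Among the 27 called genes 9 had an unadjusted p under 0.05 for the difference, and the smallest adjusted p was 0.62. These genes were chosen by their sudachitin change, which is part of the difference, so their share cannot be compared with that of all genes.

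The 5 genes with the smallest p for a positive difference were Adck5, Rapgef4, Etfbkmt, Mcm10 and Zfp872, and for a negative one Orm2, Racgap1, Nuf2, Desi2 and Serpinb1a. Rapgef4 was at 53.0 and 53.9 CPM by day and 45.6 and 45.8 by night in control, against the rise with sudachitin. The difference of its changes was 1.19 (unadjusted p 0.00019, edgeR adjusted p 0.62, DESeq2 adjusted p 0.0063). Irs2 was at 16.6 and 18.4 by day and 15.8 and 15 by night in control, a difference of 1.48 (unadjusted p 0.001, edgeR adjusted p 0.97, DESeq2 adjusted p 0.042). For the called clock genes the differences were 0.42 for Nr1d1 (unadjusted p 0.19), -0.58 for Cry1 (0.018), 0.46 for Nr1d2 (0.031) and 0.53 for Dbp (0.19). After adjustment none of these differences passed in edgeR or DESeq2. Orm2, at 5.54 and 3.92 by day and 26.7 and 5.76 by night in control, had a difference of -4.14 (unadjusted p 0.00068, edgeR adjusted p 0.88).

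**Figure D4:**
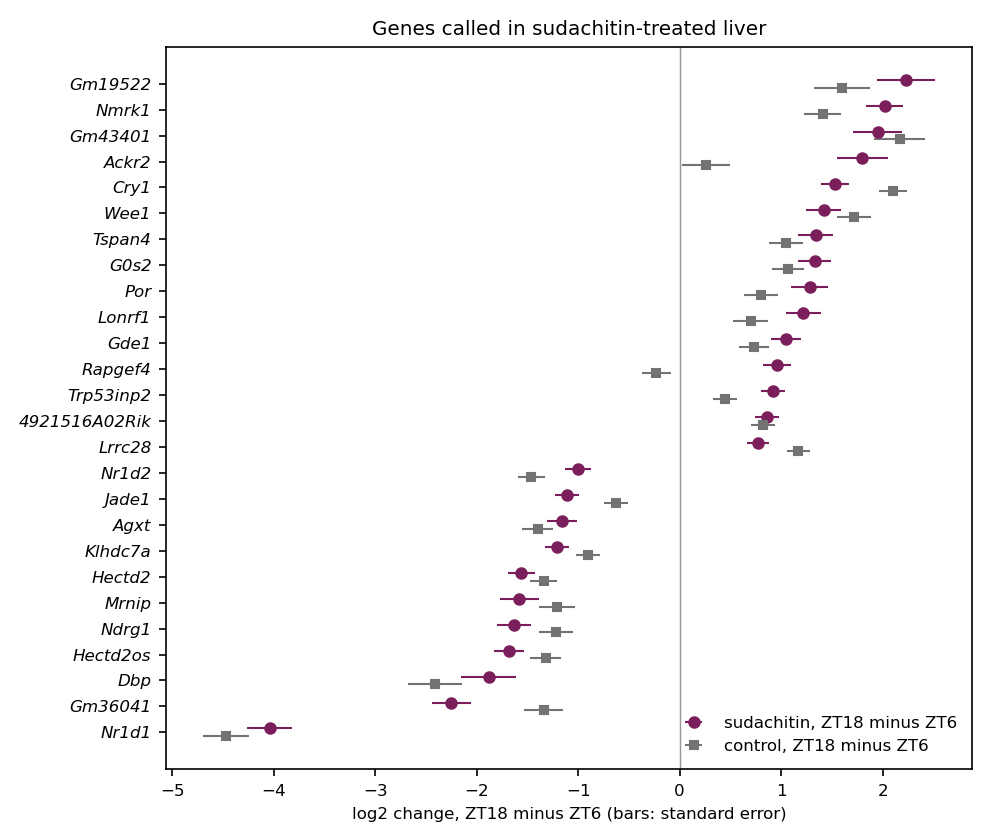
Log2 change from ZT6 to ZT18 with its standard error for 26 of the 27 genes called in sudachitin-treated liver, in sudachitin (circles) and control (squares), 2 mice a time in each. All but Rapgef4 lie on the same side of 0 in both treatments, and Nr1d1 lies at -4.04 and -4.47.

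Each call rested on few libraries. Leaving out ZT6 replicate 1 left 2 calls, ZT6 replicate 2 left 1, ZT18 replicate 1 left 5 and ZT18 replicate 2 left 12, and 20 of the 27 genes passed in none of these fits. All 8 libraries shared 1 estimate of the spread, and without control ZT18 replicate 1 there were 177 calls, without control ZT18 replicate 2 there were 185, and without both 169.

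**Figure D5:**
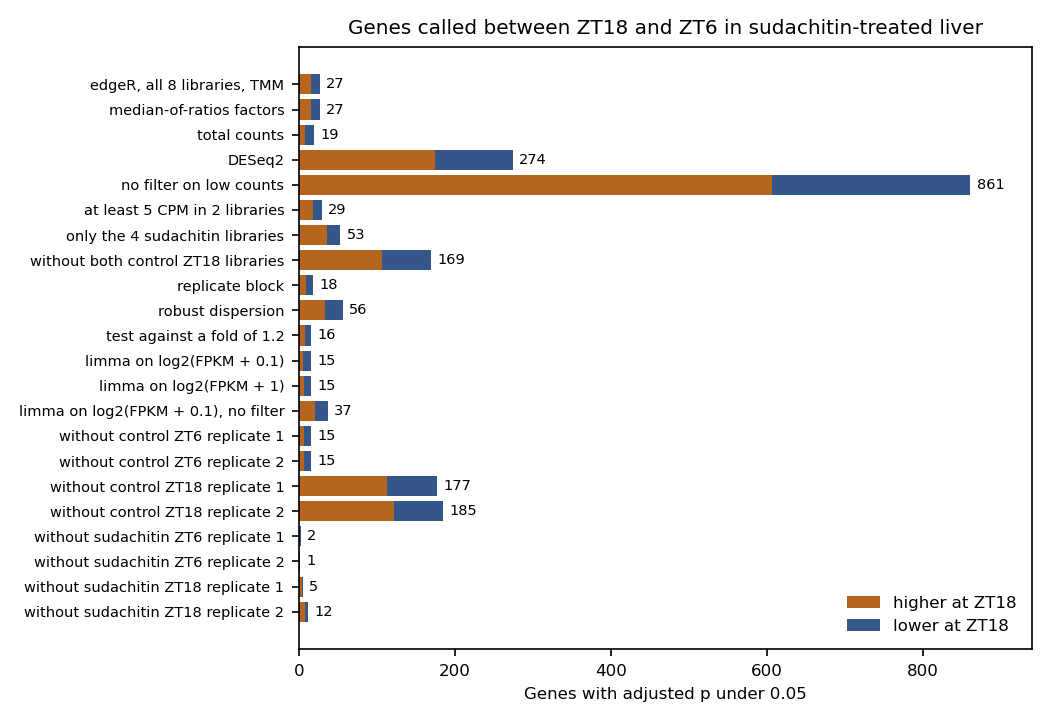
Number of genes with an adjusted p under 0.05 between ZT18 and ZT6 in sudachitin-treated liver (linear axis from 0) under 22 ways of processing, stacked by direction, with the total beside each bar. The count was 27 with all 8 libraries and TMM factors, from 1 to 12 when a sudachitin library was left out, and 861 without a filter on low counts.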

How the data were processed

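Liver RNA (integrity number above 9, 2 µg) was poly(A)-enriched and sequenced without strand information, as 150-base pairs, per the labels' protocols. Reads were processed with Trimmomatic 0.39, STAR 2.7.2a and HOMER on GRCm38 (mm10), per the submitters' processing notes. The treatment of reads with several positions is not stated in the labels. Both deposited tables list 55421 transcripts, 1 for each gene model. The first holds estimated counts in exons made by the authors, in steps of 0.5, and values ending in 0.5 were rounded up. The second holds the authors' FPKM, used for levels between genes and for an alternative test with a pseudocount of 0.1.

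The test was that of edgeR 4.0.16 in R 4.3.3 (quasi-likelihood test, TMM factors, default filter on low counts) in 1 model of 4 group means over all 8 libraries, with 4 residual degrees of freedom. P-values were adjusted by Benjamini and Hochberg over the 14506 tested genes, and the SE is the log2 change divided by the square root of F. Totals of counts in exons were 13914116 to 17759630.5 a library. The edgeR fit was also run on simulated counts, drawn with the same spread for all groups. That run could not test the fit where a library stands apart, as control ZT18 replicate 1 does. With 2 mice a group, each p-value sets a difference against a spread estimated from few animals, over all 4 groups together. Alternatives used DESeq2 1.42.0, limma 3.58.1, other scalings and filters, a replicate block and fits leaving out libraries. Promoters came from RefSeq (GRCm38.p6).

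The members and the 39 gene lists were chosen with earlier results of these data known. Named were up to 15 called genes in each direction with a mean of at least 1 CPM and a symbol not of a predicted gene, every core clock and clock output gene, up to 4 genes a list with the smallest p, up to 5 genes each way for the difference between treatments, and the 14 genes next by p. Not every gene so named is printed, and some of them are not reported here. Predicted genes among the calls were named after their values were seen.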

Additional observations from a re-analysis of the deposited data

How the results depend on the processing

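All 27 genes kept their direction under the 13 alternatives and the 8 fits that left out a library, and 12 passed in all 13. In all 27 both night livers lay outside the day pair, so their direction could hardly reverse and is no measure of stability. The count of 27 was 19 with total counts (8 higher, 11 lower), 274 with DESeq2, 861 without a filter on low counts, 53 with only the 4 sudachitin libraries, 169 without both control ZT18 libraries, 56 with robust dispersion, 16 against a fold of 1.2, and 15, 15 and 37 with limma on FPKM with a pseudocount of 0.1, of 1, or of 0.1 without a filter. It ranged from 1 to 185 when a library was left out. With the replicate number as a block it was 18 (9 higher, 9 lower), of which 16 were among the 27. The numbers do not pair the mice: deviations of same-numbered livers correlated at -0.18 in sudachitin and 0.11 in control. The count of 0 for the difference between treatments was 14 with DESeq2, 259 without a filter and 0 to 13 when a library was left out, the 13 without control ZT18 replicate 2. The directions that reversed were of genes that did not pass. Rgs16, at 0.20, was -0.1, -0.06 and -0.1 with limma on FPKM in the order above. When a library was left out, Rgs16 ranged from -1.34 to 1.12, Clock from -0.06 to 0.25, Ciart from -0.37 to 1.59, Cry2 from -0.33 to 0.12 and Hlf from -0.13 to 0.05. The causes of these differences were not tested. Summed over all genes, the mice of each time differed by more than counting noise (chi-square per degree of freedom 18.9 at ZT6 and 26.4 at ZT18). Abundant genes can dominate this sum, so it does not show what limits the values of single genes.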

Other observations

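Without both control ZT18 libraries, 169 of 14242 tested genes passed between the times in sudachitin-treated mice. The further genes named here passed in that fit only, not with all 8 libraries, and were chosen after their values were seen. Their adjusted p-values in that fit are therefore descriptive. Ces1d, a lipid hydrolase of hepatocytes, was at 412 and 466 CPM by day and 1020 and 954 by night, a log2 change of 1.16 with an edgeR adjusted p of 0.0066 in that fit. Acsl1, which activates long-chain fatty acids, was at 829 and 850 by day and 1320 and 1420 by night (0.70, adjusted p 0.039). Smad9, a transcription factor of the bone morphogenetic protein pathway, was at 2.77 and 2.86 by day and 13.5 and 12.0 by night (2.17, adjusted p 0.0061), while in control it was at 8.56 and 6.34 by day and 1.79 and 5.76 by night. The difference between treatments for Smad9 had an adjusted p of 0.88 in edgeR and of 0.00035 in DESeq2, both with all 8 libraries. Nrg4, a secreted ligand of ErbB receptors, was at 1.04 and 1.02 by day and 4.21 and 3.76 by night (1.93, adjusted p 0.029). Vegfa, a growth factor for blood vessels, was at 22.5 and 22.3 by day and 36.4 and 47.0 by night (0.89, adjusted p 0.033).

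Among genes lower at night in the same fit, Sgk2, a serum and glucocorticoid-regulated kinase, was at 74.5 and 92.1 CPM by day and 27.8 and 32.1 by night (-1.49, adjusted p 0.009). St6gal1, a sialyltransferase of secreted glycoproteins, was at 89.9 and 111 by day and 42.5 and 37.1 by night (-1.34, adjusted p 0.032). Atf5, a stress-responsive transcription factor, was at 549 and 648 by day and 350 and 329 by night (-0.83, adjusted p 0.029). None of these 8 genes passed with all 8 libraries, where their edgeR adjusted p ran from 0.065 for Ces1d to 0.35 for Vegfa. Their 2 night livers lay outside the day pair in each case, as in 23.5% (higher) and 22.3% (lower) of all tested genes.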
